A study of Mus musculus with 4 samples.

Results

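The cells described here were picked by their own RNA from a single-cell data set of mouse ankle synovium, the soft lining of the joint. A cell belonged to the group when at least 2 of the 4 genes Ndnf, Cd209d, Cd226 and Clec4b1 had a UMI (a unique molecular identifier, which stands for 1 captured RNA molecule). In addition Mrc1, Mgl2 and Cd163 together had to have at least 1 UMI, Vsig4 at most 1 UMI and Flt3 0 UMIs. Of 14451 cells with at least 300 detected genes and at most 10% mitochondrial UMIs, 533 met this rule, and they are called Cd209d Clec4b1 Ndnf gated cells here. The rule reads the RNA of the cells, so their RNA profile is described without a test. The surface antibodies, which the rule did not read, were tested.

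Cd209d and Clec4b1 encode C-type lectins of mouse myeloid cells, the first related to DC-SIGN and the second also known as DCAR. Ndnf encodes a secreted factor first described in neurons, and Cd226 encodes DNAM-1, an adhesion receptor best known from NK and T cells. Mgl2 encodes CD301b, a galactose-binding lectin of tissue macrophages and of type 2 dendritic cells, while Mrc1 encodes the mannose receptor and Cd163 the receptor for haemoglobin bound to haptoglobin. Interstitial macrophages of many tissues fall into a Lyve1-high kind that is poor in MHC class II and a Lyve1-low kind that is rich in it.

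The cells came from chimeras in which CD45.1 B6 bone marrow replaced that of CD45.2 B6 mice, with the ankles shielded during irradiation, so recipient cells of the joint were spared. The libraries were made at baseline (day 0, no treatment), at the peak of disease (day 7), at its plateau (day 14) and after resolution (day 56), with 1 library per stage. The last 3 stages followed the injection of serum from K/BxN mice, which causes serum-transfer arthritis (STIA) in the mice that receive it. The titles of the 3 arthritis libraries also carry the tag Clo-lip, which the labels do not explain and which cannot be told apart from arthritis here. Live cells were sorted as CD45+ CD11b+ and as negative for Ly6G, SiglecF, CD64, MHCII, Ly6C and CD177, and how many mice went into a library is not stated in the labels. With 1 library per stage, differences between stages have no replicate check, and every interval covers counting error only.

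Surface proteins were read through DNA barcodes carried by the antibodies. The barcodes below, written 5′ to 3′ as the deposited feature list gives them, belong to the antibodies on which the results turn. The first pair marks MHC class II and CD11c, the next pair tells donor from recipient cells, CD301b and CD163 are the proteins of the rule genes Mgl2 and Cd163, FrB marks folate receptor beta, and CD64_FcgRI was an exclusion marker of the sort.
I-A-I-E: ggtcaccagtatgat
CD11c: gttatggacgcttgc
CD45.1: cctatggacttggac
CD45.2: caccgtcattcaacc
CD301b: cttgccttgcgattt
CD163: gagcaagattaagac
FrB: ctcagatgcccttta
CD64_FcgRI: agcaattaacgggag

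The kept cells numbered 1071 at baseline, 5941 at peak, 2828 at plateau and 4611 at resolution, with 12015315, 59816482, 30781729 and 27250421 gene UMIs in all. The gated cells were deeper than the rest: their median was 14114, 11196.5, 9077 and 8385 gene UMIs over the 4 stages, against 7582.5, 8242, 6774 and 4639.5 in all other kept cells. A rule that asks for detected UMIs favours deep cells, so shares of cells with a UMI are given after each cell was thinned to 3000 UMIs. 20 kept barcodes occurred in more than 1 library; 1 of them belonged to a gated cell, and 0 were gated cells in both libraries. As a measure of free RNA, 160 cells with markers of lymphocytes, neutrophils, mast cells or basophils and no Csf1r or C1qa UMI were read in the same way. Their median depths were 7685, 3749, 2430.5 and 1868 gene UMIs.

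Most gated cells passed on Clec4b1 and Ndnf. Clec4b1 (GRCm38.p6, chr6:123049962-123071555) had a UMI in 493 of the 533 cells, Ndnf (chr6:65671611-65712323) in 398, Cd226 in 214 and Cd209d (chr8:3871824-3878548) in 153. Of the 533 cells, 371 had 2 of these genes, 132 had 3 and 30 had all 4. The pair Ndnf with Clec4b1 was found in 362 cells, Cd226 with Clec4b1 in 192 and Cd209d with Clec4b1 in 129, whereas Cd209d with Cd226 was found in 58. Cd209d is thus the rarest of the genes in the name of the group. Cd209d and Clec4b1 belong to families of close copies, whose reads the authors' counting could split, so their levels are less certain than that of Ndnf.

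Close to the limits of the rule, 57 gated cells had just 2 UMIs over all 4 gate genes, 54 had just 1 UMI over Mrc1, Mgl2 and Cd163, and 5 had 1 Vsig4 UMI. Just outside, 697 cells met every other limit but had only 1 of the 4 gate genes, 448 of them at resolution. A further 87 failed for want of Mrc1, Mgl2 or Cd163, 63 had a Flt3 UMI and 1 had 2 or more Vsig4 UMIs.

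Gated cells formed 3.64% of kept cells at baseline (39 of 1071, exact 95% interval 2.60 to 4.95), 0.471% at peak (28 of 5941, 0.313 to 0.680), 0.177% at plateau (5 of 2828, 0.0574 to 0.412) and 10.0% at resolution (461 of 4611, 9.15 to 10.9). The resolution library therefore held 461 of the 533 cells. After every cell was thinned to 3000 UMIs and the rule applied again, the shares were 0.868% (0.375 to 1.70), 0.0572% (0.0118 to 0.167), 0.0444% (0.00112 to 0.247) and 6.23% (5.45 to 7.08). At equal depth the interval at resolution still lay above that of every earlier stage, and those of peak and plateau lay below that of baseline. At 2000 UMIs the intervals of plateau and baseline overlapped. Thinning left out 149, 695, 574 and 1110 kept cells that were too shallow, among them 1, 4, 0 and 18 gated cells. These are shares of sorted cells, so other cells entering the joint and a change in the gated cells themselves cannot be told apart. Plateau, with 5 gated cells, is given by its counts, enters the shares pooled over 4 libraries and is left out of the RNA ratios and antibody tests.

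**Figure D1:**
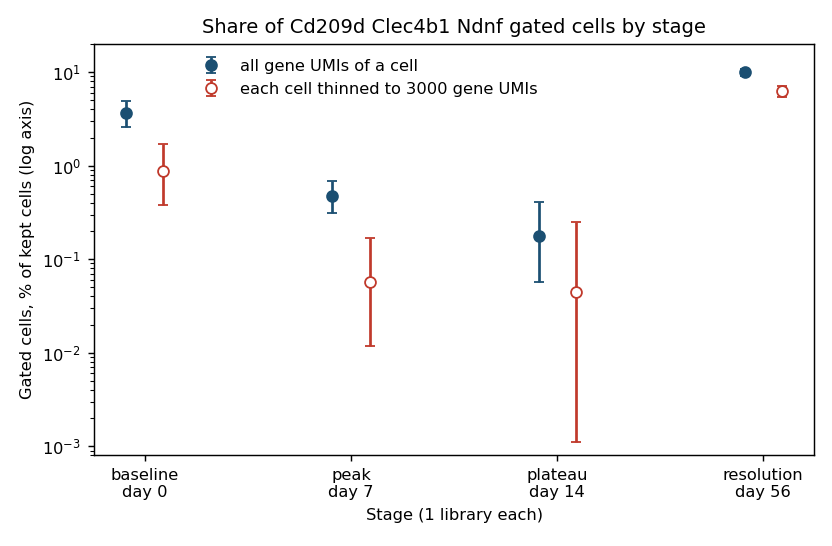
Share of kept cells that met the rule (log axis, percent) at baseline, peak, plateau and resolution, 1 library each, with all UMIs (filled) and after thinning each cell to 3000 UMIs (open). Bars are exact 95% binomial intervals, and the 2 values at resolution, 10.0% and 6.23%, lie above those of the other stages.

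Most gated cells with enough CD45 antibody signal to be called were of donor origin. Among cells with at least 10 UMIs of the CD45.1 and CD45.2 antibodies together, a cell was marked as donor when CD45.1 made up at least 80% of them. Donor cells were 31 of 34 gated cells at baseline (91.2%, exact 95% interval 76.3 to 98.1), 27 of 28 at peak (96.4%), 4 of 4 at plateau and 308 of 321 at resolution (95.95%, 93.2 to 97.8). Over all stages 370 of 387 gated cells were donor cells (95.6%, 93.1 to 97.4), 8 were recipient cells and 9 had a mixed signal. Cells with at least 2 Vsig4 UMIs, called Vsig4-high macrophages here, stood at the other end, with 3 donor cells of 303 (0.990%, 0.205 to 2.87) and 270 recipient cells. All other kept cells had a donor share of 72.7% at baseline and 63.6% at resolution, which lies below the interval of the gated cells at both stages. At peak that share was 94.8%, inside the interval of the gated cells (81.65 to 99.9).

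Checked against marker genes, the gated cells carried a thinner macrophage profile than the label interstitial macrophage would lead one to look for. The macrophage growth factor receptor gene Csf1r had a UMI in 45.7% of thinned gated cells, against 87.1% of Vsig4-high macrophages and 38.8% of Flt3-positive dendritic cells. These last are 238 cells with a Flt3 UMI, a Cd209a or Clec10a UMI and an H2-Ab1 UMI. The shares pool the 4 libraries, and 443 of the 510 thinned gated cells came from resolution, whereas most other kept cells came from peak and plateau. C1qa, which encodes a chain of complement C1q, was found in 27.1% of gated cells, 98.0% of Vsig4-high macrophages and 7.33% of the dendritic cells. Mertk, a receptor for the uptake of dying cells, was found in 0.392%, 11.7% and 0% of the 3 groups. For Cd68, an endosomal protein, the shares were 43.5%, 64.9% and 47.0%. Lyve1 and Folr2, both typical of perivascular resident macrophages, were found in 6.08% and 2.55% of gated cells, against 88.6% and 80.9% of Vsig4-high macrophages.

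On the dendritic cell side, Flt3 was 0 by the rule, and Zbtb46, a transcription factor of conventional dendritic cells, was found in 1.57% of gated cells and 1.72% of the Flt3-positive dendritic cells. MHC class II RNA was nearly universal: H2-Ab1, the class II beta chain, had a UMI in 92% of gated cells, against 19.4% of Vsig4-high macrophages and 37.0% of all other kept cells. Cd74, the invariant chain, was found in 98.4% of gated cells, 21.4% of Vsig4-high macrophages and 24% of the cells read for free RNA. Ccr2, the monocyte chemokine receptor, was found in 66.5% of gated cells and 4.57% of Vsig4-high macrophages. The classical monocyte genes are given by stage, since the pooled groups differ in their mix of libraries. Plac8 was found in 28.9%, 62.5% and 7.45% of gated cells at baseline, peak and resolution, against 70.7%, 76.8% and 29.8% of all other kept cells. Ly6c2 was found in 23.68%, 50% and 2.71% of gated cells, against 43.6%, 50.2% and 14.7%, so at peak the groups did not differ by more than their intervals. Given this mix, the cells are called by their rule and not by a cell type.

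The rule asked for UMIs of the rule genes, so their excess over free RNA in the thinned cells was largely set by the choice of cells. Free RNA at resolution was also poorly measured. Only 37 of the 160 cells read for it came from that stage. Their median was 1868 gene UMIs, so most of them were too shallow for thinning. Ndnf was found in 41.0% of gated cells and 2.88% of the cells read for free RNA, Clec4b1 in 63.1% and 0.962%, and Mgl2 in 69.2% and 1.92%. Mgl2 (chr11:70130125-70137542) separated the gated cells from the Vsig4-high macrophages, of which 2.57% had it. Mrc1 (chr2:14229414-14332023) did not, with 44.3% of gated cells and 46.9% of Vsig4-high macrophages, and neither did Cd163 (chr6:124304636-124330529), with 30.2% and 28.0%. Flt3-positive dendritic cells shared part of the gate genes, with Clec4b1 in 25%, Cd209d in 15.1% and Ndnf in 9.48% of them. These shares describe how the cells were chosen.

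**Figure D2:**
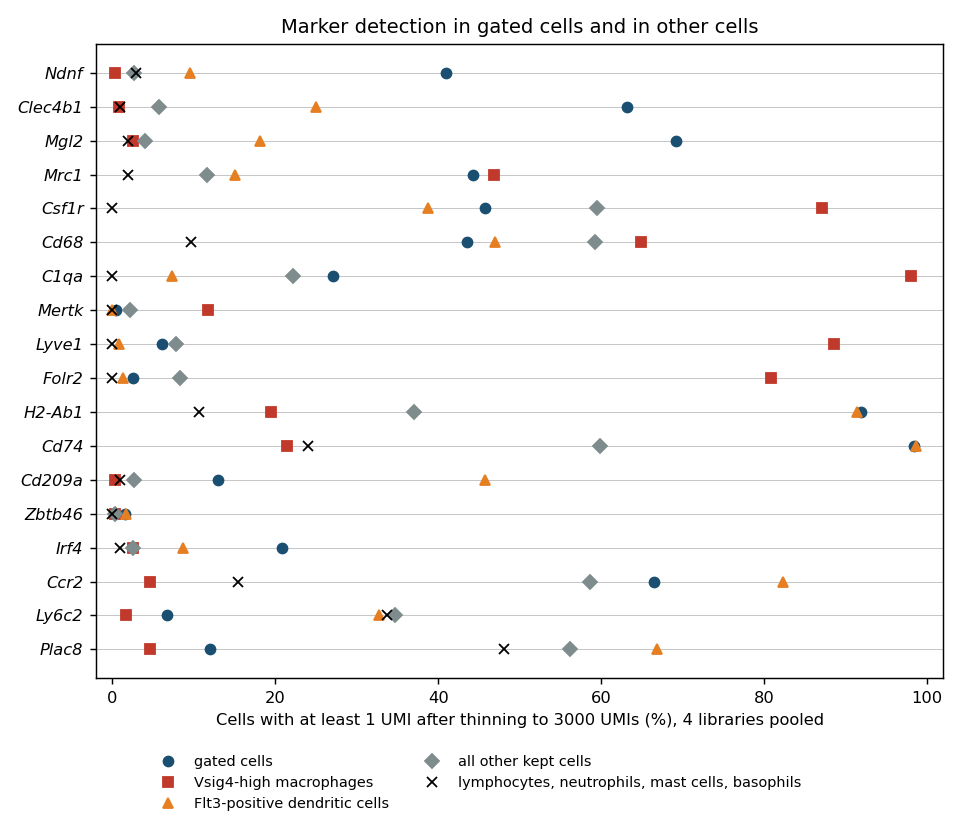
Percent of cells with at least 1 UMI of each gene after thinning to 3000 UMIs, 4 libraries pooled, in gated cells (dark circles), Vsig4-high macrophages (red squares), Flt3-positive dendritic cells (orange triangles), all other kept cells (grey diamonds) and cells read for free RNA (crosses). The gated cells lie near the dendritic cells for Csf1r (45.7% and 38.8%), which was used to pick neither of these groups. They lie far from the Vsig4-high macrophages for C1qa (27.1% and 98.0%). The cells read for free RNA lack Csf1r and C1qa by choice.

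RNA levels were compared within a library in CPM, the gene's summed UMIs over the summed UMIs of all genes, brought to a common total, and the log2 ratios of the baseline, peak and resolution libraries were averaged with equal weight. A gene is called when its mean ratio passed 2-fold and its direction was the same in all 3 libraries. Against all other kept cells, 789 of 13897 genes were higher by this measure (5.68%) and 891 lower (6.41%). Without the peak library 502 were higher and 1606 lower, and without the resolution library 1323 were higher. Genes of MHC class II presentation were among the higher ones: 9 of the 15 detected genes of that list were higher and 0 lower, with a median log2 ratio of 1.31 against 0.01 over all genes. H2-Eb1, a class II beta chain, averaged 2.10 ± 0.51 (log2, SD over 3 libraries), with 752, 3325 and 2543 CPM in gated cells at baseline, peak and resolution, against 197, 522 and 782 CPM in other cells. H2-Aa, the class II alpha chain, had 1369, 4997 and 4162 CPM, against 506, 1047 and 1427 CPM in other cells.

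Alternative activation genes, which macrophages express under type 2 cytokines, gave 6 higher and 1 lower of 22 detected, with a median of 0.28. Retnla, a secreted resistin-like protein of that list, had 919, 662 and 1595 CPM in gated cells at baseline, peak and resolution, against 204, 4.24 and 460 CPM in other cells. Its UMIs were uneven, since 1 cell held 66% of those at baseline. Ccl17, a chemokine that attracts CCR4-bearing T cells, had 227, 0 and 715 CPM in gated cells, against 9.04, 0.103 and 94.6 CPM in other cells, so at peak it was found in no gated cell and its ratio there is set by the 0.5 counts added to each side. Irf4, a transcription factor needed by CD301b+ dendritic cells of mouse skin, had 23.91, 21.3 and 113 CPM in gated cells against 7.53, 2.33 and 27.6 CPM. Tnip3, an inhibitor of NF-kB signalling, was the most even of the 12 named genes with the largest excess, with 191, 125 and 459 CPM against 42.0, 26.6 and 115 CPM (mean log2 ratio 2.14 ± 0.13). Areg, an epidermal growth factor receptor ligand, had 167, 66.2 and 442 CPM against 14.1, 27.9 and 116 CPM. Itgax, the gene of CD11c, had 28.4, 16.6 and 101.5 CPM against 10.3, 7.72 and 32.7 CPM.

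The others among them included Mucl1, Lyz1, Flrt3, Spink2, Cd200r1 and Slamf7. Mucl1, at 138, 140 and 317 CPM, came from 34 of the gated cells. Lyz1, a lysozyme with a near copy in Lyz2, had 330, 705 and 510 CPM against 81.2, 17.6 and 170 CPM in other cells. Cd200r1, the receptor of the inhibitory ligand CD200, had 61.3, 54.4 and 107 CPM against 8.59, 21.6 and 25.8 CPM. Slamf7, a self-binding receptor of the SLAM family, had 71.7, 78.1 and 207 CPM against 26.8, 12.4 and 49.0 CPM.

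Monocyte lists lay on the lower side of the same comparison. Of 12 detected genes of classical monocytes 9 were lower and 0 higher, with a median of -1.44, and of 14 genes of nonclassical monocytes 7 were lower and 0 higher (median -1.31). Complement genes gave 2 higher and 8 lower of 17. The fibroblast list was lower in all 9 of its detected genes, with a median of -6.14. At resolution 3 or more of 6 fibroblast markers were found in 2 of the 461 gated cells and in 5.30% of other cells. Without cells that carry 3 or more markers of another type or both CD45 antibodies, a setting chosen after seeing the data, 5 of the named genes had no deficit: the log2 ratio was 0.044 for Col1a2, 0.28 for Col1a1, 0.22 for Mgp, 0.065 for Clec3b and 1.25 for Lum. The 12 named genes with the largest deficit, Sparc, Prg4, Col3a1, Igfbp5, Dcn, Col1a1, Elane, Col1a2, Clec3b, S100a9, Mgp and Lum, were mostly genes of fibroblasts or neutrophils. In that setting 397 genes were lower instead of 891. Cell cycle genes gave 10 higher and 0 lower of 20 detected (median 1.02), with Mki67 at 143, 52.0 and 59.0 CPM in gated cells against 109, 15.5 and 28.8 CPM in other cells. The rule favours deep cells, and the part of depth in the cell cycle counts, here and below, was not tested.

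Set against the Vsig4-high macrophages alone, the gated cells had 662 of 9607 genes higher (6.89%) and 1379 lower (14.4%). Those macrophages were picked by Vsig4, a marker of resident and lining macrophages that the rule caps in gated cells. Differences in other markers of such macrophages are therefore not independent of that choice. Genes of resident macrophages lay on the lower side: 21 of 22 detected genes of resident interstitial macrophages were lower and 1 higher (median -2.84, against -0.18 over all genes), and all 10 detected genes of lining macrophages were lower (median -2.57). Lyve1, a hyaluronan receptor, had 181, 2.37 and 51.8 CPM in gated cells, against 2865, 1431 and 2515 CPM in Vsig4-high macrophages. Folr2, folate receptor beta, had 28.4, 28.4 and 10.4 CPM against 985, 626 and 743 CPM. C1qa had 502, 634 and 287 CPM against 5782, 3995 and 4281 CPM (mean log2 ratio -3.36 ± 0.64). Scavenger and dying-cell uptake genes gave 15 lower and 2 higher of 19, and complement genes 9 lower and 3 higher of 14. Maf, a transcription factor of macrophages, had 43.3, 40.2 and 11.3 CPM against 436, 377 and 338 CPM. The macrophage core list had 10 of 18 genes lower and 0 higher, with Csf1r at 287, 270 and 214 CPM against 791, 701 and 712 CPM.

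MHC class II, dendritic cell and monocyte genes lay on the higher side. Of 14 detected presentation genes 8 were higher and 0 lower (median 4.12), and of 9 dendritic cell genes 7 were higher and 0 lower (median 3.85). Classical monocyte genes gave 6 higher and 3 lower of 11 (median 3.38), and nonclassical monocyte genes 6 and 3 of 12 (median 1.49). H2-Aa averaged 5.20 ± 0.27 on the log2 scale, with 1369, 4997 and 4162 CPM in gated cells against 45.7, 122 and 101 CPM in Vsig4-high macrophages. Itgax had no UMI in the Vsig4-high macrophages of any of the 3 libraries. Ccr2 had 765, 892 and 617 CPM in gated cells against 4.94, 104 and 28.2 CPM. C-type lectin genes, from which the rule genes were left out, gave 9 higher and 2 lower of 13 (median 1.20). Clec4a2, the inhibitory lectin DCIR, averaged 2.97 on the log2 scale, and Clec10a, the close copy of Mgl2 that encodes CD301a, averaged 2.71. Cell cycle genes were higher in 14 of 20 and lower in 0. Other named genes with a large excess were Ear2, Ltb4r1, Klrk1, Il1r2, Mmp12, Flrt3, Ramp1 and Lmo1, with Ltb4r1, a leukotriene B4 receptor, at 6.06 and Ramp1, a subunit of the receptor for the nerve peptide CGRP, at 5.31. Cxcl10 also met the rule for named genes, but 98.6% of its UMIs at peak came from 1 cell. The named genes with the largest deficit included Sparc (-8.02), Hpgds (-6.26), Ltc4s (-6.05) and Lyve1 (-6.08 ± 2.38), of which Hpgds and Ltc4s encode enzymes of prostaglandin D2 and leukotriene C4 synthesis.

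The Flt3-positive dendritic cells were the closer neighbour in presentation genes, but they were picked in part by an H2-Ab1 UMI. Closeness in the other MHC class II genes is therefore not independent of that choice. Against the Flt3-positive dendritic cells, 597 of 9340 genes were higher in gated cells (6.39%) and 230 lower (2.46%). No presentation gene of 15 was higher and 2 were lower (median -0.26, against 0.09 over all genes), with H2-Aa at 1369, 4997 and 4162 CPM in gated cells against 1854, 5856 and 8131 CPM. Ccr2 was close as well, with a mean log2 ratio of 0.03. The dendritic cell list, by contrast, gave 0 higher and 6 lower of 13 detected genes (median -0.91). Since those cells were picked by Flt3, Cd209a or Clec10a, and H2-Ab1, the lower Cd209a (37.4, 114 and 65.9 CPM against 106, 351 and 529 CPM) and Clec10a are fixed by that choice, and H2-Ab1 is raised by it. Irf8, a transcription factor of dendritic cells and monocytes, was not used to pick them and had 55.3, 28.4 and 6.71 CPM against 119, 75.4 and 60.5 CPM. Plac8 had 1006, 1220 and 74.9 CPM against 2985, 2080 and 472 CPM, and Cd7 had the largest deficit, at -4.95. Other named genes on that side were Ifitm1, Gcnt2, Sorl1, Pmaip1, Ms4a4c, Ms4a6b and Ass1, the last at -1.48.

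Several lists of secreted products and alternative activation lay above the dendritic cells, while the macrophage lists were mixed. The macrophage core list gave 3 higher and 1 lower of 17 (median 0.15), the macrophage transcription factors 0 and 2 of 23 (median -0.21), and the uptake and scavenger receptors 2 and 0 of 16 (median 0.14). Alternative activation genes gave 8 higher and 0 lower of 21 (median 0.95), chemokines 5 higher and 1 lower of 16 (median 1.77), complement genes 5 higher and 0 lower of 12, growth and vessel factors 6 higher and 0 lower of 15, and resident macrophage genes 7 higher and 2 lower of 20. Retnla had 919, 662 and 1595 CPM in gated cells against 2.93, 0 and 16.2 CPM in the dendritic cells. Pf4, a platelet-type chemokine that resident macrophages also make, had 1213, 246 and 841 CPM against 91.0, 8.47 and 255 CPM. Cd81, a tetraspanin, had 390, 225 and 810 CPM against 74.8, 6.93 and 240 CPM. Lyz1 averaged 4.10 on the log2 scale, Anxa8, an annexin, 3.77, Pmp22 3.61, Ccl24 3.47, Slc7a2 3.19, Cd200r1 3.1, Cd36 3.07 and Lyve1 2.98. These ratios rest on 25, 95 and 92 dendritic cells at the 3 stages, and 331 genes were higher without the resolution library.

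**Figure D3:**
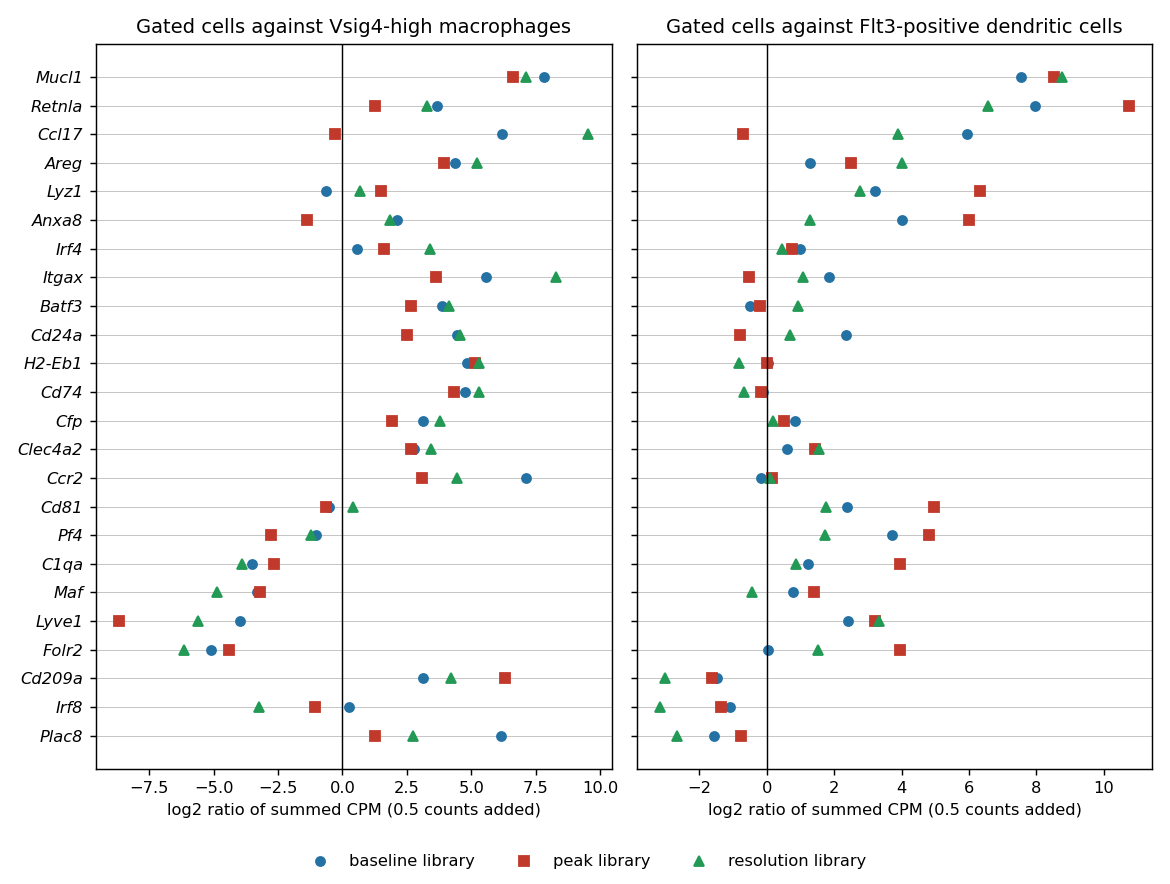
log2 ratio of summed CPM (0.5 counts added) of gated cells over Vsig4-high macrophages (left) and over Flt3-positive dendritic cells (right), with 1 point for each of the baseline, peak and resolution libraries; values above 0 are higher in gated cells. H2-Eb1 and Cd74 lie to the right of 0 in all 3 libraries on the left panel and near 0 on the right panel, and C1qa, Lyve1 and Folr2 lie to the left of 0 on the left panel.

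The surface antibodies give a measurement that the rule did not use. They were summed per library over gated cells and over comparator cells, and tested with edgeR's quasi-likelihood test with the library as a block and Benjamini-Hochberg adjustment over 87 antibodies. The 3 libraries are different stages, so a call is an average over them, and the direction in each library is given where it differs. Against all other kept cells 2 antibodies were higher (2.30%) and 1 lower (1.15%). I-A-I-E, which binds MHC class II, rose by 2.25 on the log2 scale (SE 0.21, edgeR adjusted p = 0.00262) and was higher in 3 of 3 libraries. Its level was 727, 2002, 1578 and 1932 per 10000 antibody UMIs in gated cells at baseline, peak, plateau and resolution, against 148, 381, 395 and 749 in other cells. At baseline 43.0% of its UMIs in gated cells lay in 1 cell, and the median per cell was 37, 91.5, 98 and 85 UMIs in gated cells against 3, 10, 5 and 4. The sort excluded MHCII+ cells, but this antibody was read on most gated cells.

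CD11c, an integrin chain common on dendritic cells and on some tissue macrophages, rose by 2.28 (SE 0.31, edgeR adjusted p = 0.0118), again in 3 of 3 libraries. It had 49.9, 66.0, 154 and 181 per 10000 antibody UMIs in gated cells, against 9.70, 14.8, 18.0 and 58.2 in other cells. At peak its median was 1.5 UMIs per cell in the 24 gated cells with 2 gate genes and 20 in the 4 with 3 or 4. Those sets had 55.65 and 88.33 per 10000 antibody UMIs. CD90.2, the Thy1 protein of T cells and fibroblasts, fell by 1.59 (SE 0.30, edgeR adjusted p = 0.0459), with 116, 29.5, 22.3 and 46.3 in gated cells against 280, 121, 46.1 and 206. In the same test 11 antibodies had an unadjusted p under 0.05. CD90.2 was not called without the baseline library. Without the peak library I-A-I-E and CD11c kept log2 values of 2.05 and 2.22, each with an edgeR adjusted p = 0.1535. Their library ratios without TMM factors were 2.30 and 2.36 at baseline, 2.39 and 2.16 at peak, and 1.37 and 1.64 at resolution. The calls thus depended on the peak library, but the size of these rises did not. Without baseline or without resolution, I-A-I-E stayed called (edgeR adjusted p = 0.00835 and 7.53e-10), and so did CD11c (edgeR adjusted p = 0.0296 and 0.0205). Those runs have as many libraries as the run without peak. The part of the number of libraries in the lost calls was not tested further. Without peak no antibody was called. None was called without TMM factors (I-A-I-E edgeR adjusted p = 0.0665) or without the library block (0.359 for I-A-I-E) either.

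Against Vsig4-high macrophages 13 antibodies were higher (14.9%) and 9 lower (10.3%). I-A-I-E rose by 4.70 (SE 0.47, edgeR adjusted p = 4.47e-17), against 33.5, 104, 76.9 and 91.1 per 10000 antibody UMIs in the Vsig4-high macrophages. Without TMM factors it rose by 4.37, and its 3 library values, also without them, lay between 4.27 and 4.44. CD11c rose by 4.52 (SE 0.83, edgeR adjusted p = 2.29e-06), against 2.77, 6.05, 2.85 and 5.95. CD11a, an integrin chain of circulating leukocytes, rose by 4.42 (SE 0.66) with 660, 795, 132 and 213 in gated cells against 16.0, 93.1, 72.5 and 14.4. The donor marker CD45.1 rose by 4.10 and the recipient marker CD45.2 fell by 2.58, as in the counts of donor cells above. CD61, Ly6C, CD102, CD31 and CD36 rose by 3.1, 3.06, 2.79, 2.54 and 2.48, and CD184_CXCR4, CD357 and CD11b by less than those. In library ratios without TMM factors, CD11b was lower at baseline (-0.19) and higher at peak (0.58) and resolution (0.46). For Ly6C the baseline library stood apart, with 2127, 130, 40.4 and 29.0 in gated cells against 41.2, 45, 30.2 and 8.37. Cd36 RNA had the opposite sign to its antibody in this comparison, with a mean log2 ratio of -2.92.

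Several of the antibodies that fell bind proteins of resident macrophages. The comparator was picked by Vsig4, a marker of those macrophages, so lower levels of such proteins are not independent of that choice. Tim4, a receptor for phosphatidylserine, fell by 4.88 (SE 0.80, edgeR adjusted p = 2.19e-07), with 4.02, 11.4, 1.06 and 11.2 per 10000 antibody UMIs in gated cells against 181, 381, 328 and 375 in Vsig4-high macrophages. FrB fell by 2.99 (SE 0.65, edgeR adjusted p = 6.78e-05), with 42.4, 101, 20.2 and 32.7 against 600, 568, 814 and 412. MERTK fell by 2.84, with 1.22, 3.02, 1.06 and 2.61 against 40.6, 17.6, 19.0 and 11.8. CD107a, CD55, CD169_Siglec-1 and CD204_Msr1 fell by 2.16, 2.05, 1.60 and 1.5. CD163 fell by 1.91 (SE 0.34, edgeR adjusted p = 1.16e-06), with 320, 637, 24.5 and 549 in gated cells against 1642, 3432, 1009 and 2109. That antibody reads the protein of a rule gene. Cd163 RNA was found in 30.2% of gated cells and 28.0% of Vsig4-high macrophages, but the rule could admit a gated cell by this RNA. The 2 shares are therefore not a check on the choice of cells.

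Other antibodies that bear on the rule or the sort did not pass the test. CD301b, the protein of the rule gene Mgl2, had 22.8, 29.3, 30.9 and 55.7 per 10000 antibody UMIs in gated cells, against 18.6, 12.3, 9.95 and 32.4 in other cells (log2 1.01, SE 0.38, edgeR adjusted p = 0.348). Its median was at most 2 UMIs per gated cell at any stage, so this antibody gave little signal, whereas Mgl2 RNA was found in 69.2% of the thinned cells. CD64_FcgRI, an exclusion marker of the sort, had 6.34, 32.1, 17.0 and 5.34 in gated cells against 7.88, 25.4, 16.3 and 8.87 in other cells (log2 0.00, edgeR adjusted p = 0.996). With the resolution library left out, none of the 22 calls against Vsig4-high macrophages was made (I-A-I-E log2 4.72, edgeR adjusted p = 0.1092), with 1 residual degree of freedom. Without baseline 1 was higher and 2 lower, and without peak 4 and 7.

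**Figure D4:**
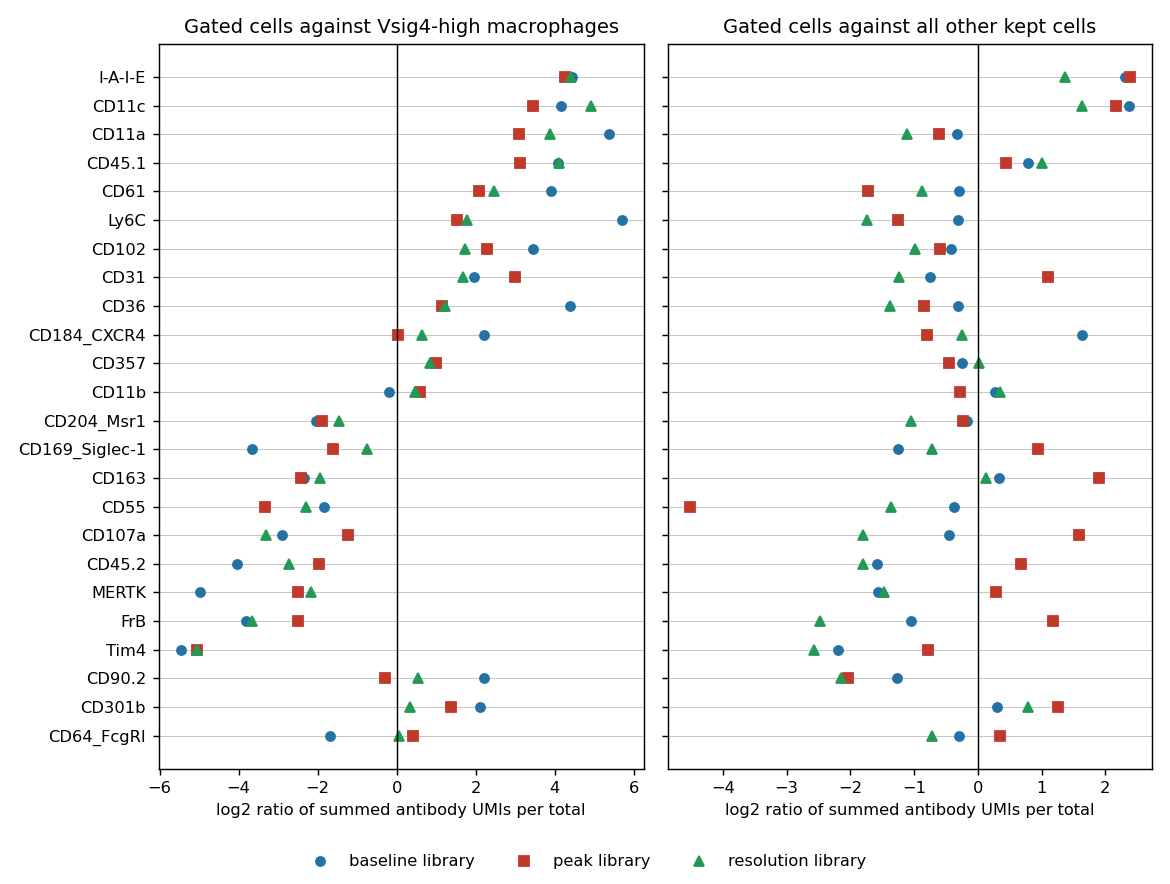
log2 ratio of antibody UMIs per total antibody UMIs of gated cells over Vsig4-high macrophages (left) and over all other kept cells (right), with 1 point for each of the baseline, peak and resolution libraries. I-A-I-E and CD11c lie right of 0 in all 3 libraries on both panels, and Tim4, FrB, MERTK and CD163 lie left of 0 in all 3 libraries on the left panel.

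Across stages, the gated cells of resolution had higher levels of Ccl17, Mmp12, Rnase2a, Flt1, Irf4 and the rule gene Mgl2 than those of baseline. The cells compared sat largely in different clusters of the whole data set: cluster 4, whose leading genes include these 6, held 381 of 461 gated cells at resolution and 15 of 39 at baseline. Between resolution and baseline, 581 of 8434 genes were more than 2-fold higher at resolution (6.89%) and 460 lower (5.45%). Presentation genes gave 6 higher and 0 lower of 13 (median 0.74, against -0.03 over all genes), alternative activation genes 8 higher and 1 lower of 20 (median 0.54), and growth and vessel factors 7 higher and 1 lower of 14 (median 1.01). Mgl2, 1 of the 3 genes by which the rule could admit a cell, had 961 CPM at resolution and 326 CPM at baseline, a ratio of 2.95 (exact 95% interval 2.57 to 3.40), and Ccl17 had 715 and 227 CPM, a ratio of 3.15 (2.68 to 3.73). Mmp12, a macrophage elastase, had 379 and 16.4 CPM, a ratio of 23.0 (12.8 to 46.2). Rnase2a, an eosinophil-type ribonuclease, had 216.5 CPM at resolution in 69 of 461 cells and no UMI in the 39 cells at baseline. Taken against a floor of 3 counts per library it was at least 48.3-fold higher. Flt1, a receptor of vascular endothelial growth factor, had 170 and 25.4 CPM, a ratio of 6.69 (4.15 to 11.6), and the secreted factors Wnt11 and Edn1 had ratios of 7.66 (3.48 to 21.1) and 7.04 (3.19 to 19.4). Irf4 had a ratio of 4.72 (2.88 to 8.33) and Itgax of 3.58 (2.26 to 6.00), while Ndnf, a gate gene, had 181 and 161 CPM.

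In shares of thinned cells, the rule gene Mgl2 was found in 75.4% of gated cells at resolution (exact 95% interval 71.1 to 79.3) and 39.5% at baseline (24 to 56.6). H2-Ab1 was found in 93.7% (91.0 to 95.8) and 71.1% (54.1 to 84.6), and Tnip3 in 63.4% (58.8 to 67.9) and 39.5% (24 to 56.6). Flt1 was found in 30.5% (26.2 to 35.0) and 5.26% (0.644 to 17.8), and Rnase2a in 11.5% (8.69 to 14.9) and 0% (up to 9.25). The interval of Rnase2a at resolution overlaps that at baseline, and so do those of Ccl17 (24% and 21.1%), Mmp12 (20.3% and 7.89%), Irf4 (23.0% and 7.89%) and Retnla (30.2% and 13.2%). The summed level and the share of cells therefore part company for Ccl17.

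Genes of monocytes ran the other way. Of 11 detected classical monocyte genes 8 were lower at resolution and 0 higher (median -3.42). Plac8 had 74.9 CPM at resolution and 1006 CPM at baseline, a ratio of 0.0745, and was found in 7.45% (5.18 to 10.3) and 28.9% (15.4 to 45.9) of thinned cells. Ly6c2 had 21.5 and 288 CPM, and was found in 2.71% (1.41 to 4.68) and 23.68% (11.4 to 40.2). F13a1, the coagulation factor XIII A chain, had 28.0 and 371 CPM. Of 17 detected interferon response genes 12 were lower and 2 higher, and cell cycle genes lower in 13 of 20 and higher in 2, with Mki67 at 59.0 and 143 CPM. All 7 detected neutrophil genes were lower, but their RNA at baseline lay in few cells: 1 cell held 87.7 to 100% of the UMIs of Ngp, S100a8, S100a9, Retnlg, Ltf, Camp and Lcn2, and 2 of the 39 gated cells at baseline had 3 or more neutrophil markers. The part of such cells in other differences was not tested beyond leaving them out. Dcn, Apod and Ctsk also met the rule for named genes at resolution, with 71.5%, 67.6% and 84.3% of their UMIs in 1 cell.

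Between peak and baseline, 218 of 4320 genes were more than 2-fold higher at peak (5.05%) and 378 lower (8.75%), on 28 and 39 cells, of which 3 and 15 were in cluster 4. Of 11 detected presentation genes 7 were higher and 0 lower (median 1.14, against -0.07 over all genes). H2-Ab1 had 3292 CPM at peak and 1173 CPM at baseline, a ratio of 2.81 (exact 95% interval 2.57 to 3.07). Fcgr1, the gene of CD64, had 182 and 28.4 CPM, a ratio of 6.42 (3.84 to 11.2), with UMIs in 16 of 28 and 10 of 39 cells, and Il1b, an inflammatory cytokine, had 2001 and 817 CPM, a ratio of 2.45 (2.20 to 2.73). Interferon response genes gave 17 higher and 0 lower of 19 (median 2.25). At peak 1 gated cell, with 62 CD45.1 and 251 CD45.2 antibody UMIs, held 79158 of the 422813 summed gene UMIs. Its part in this list count was not tested. For Isg15, an interferon-induced ubiquitin-like protein, 1121 and 47.8 CPM gave a ratio of 23.45, with 73% of the peak UMIs in 1 cell, but 45.8% (25.6 to 67.2) of thinned cells at peak had it against 10.5% (2.94 to 24.8) at baseline. Plac8 was found in 62.5% (40.6 to 81.2) and 28.9% (15.4 to 45.9), Ly6c2 in 50% (29.1 to 70.9) and 23.68% (11.4 to 40.2), with overlapping intervals. Ccl17 had no UMI in 28 cells at peak and 227 CPM in 9 of 39 cells at baseline, at least 32.0-fold lower against a floor of 3 counts. Anxa8 had 24 and 154 CPM in 2 and 21 cells. Ndnf, a gate gene by which cells were admitted, had 66.2 and 161 CPM, a ratio of 0.410 (0.261 to 0.627).

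Many of the largest ratios at peak rest on single cells. Ccl12, Acp5, Ctsk, Atp6v0d2, Ifit1, Ifit1bl1 and Cxcl10 had 86% or more of their peak UMIs in 1 cell, and 2 of the 28 gated cells had 3 or more of 6 osteoclast markers. Ly6a (10 of 28 and 2 of 39 cells) and Ifitm1 (10 and 4 cells) were spread over more cells.

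**Figure D5:**
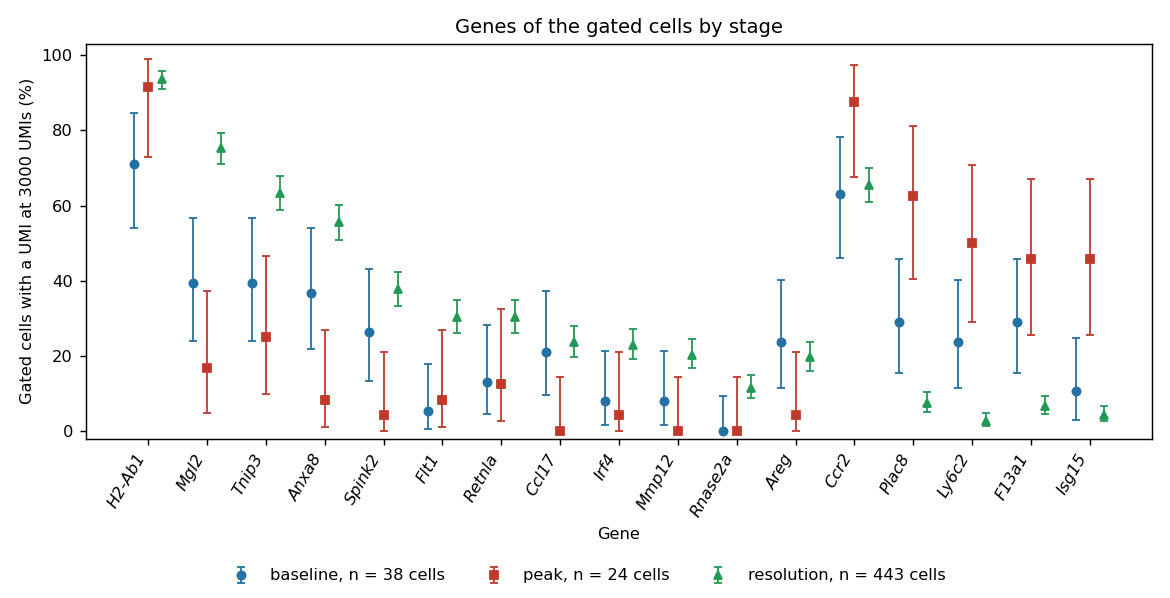
Percent of gated cells with at least 1 UMI after thinning to 3000 UMIs at baseline (38 cells), peak (24 cells) and resolution (443 cells), with exact 95% binomial intervals. Tnip3, Flt1 and the rule gene Mgl2 are highest at resolution, and Plac8, Ly6c2 and Isg15 are highest at peak.

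The gated cells were clustered together with all kept cells to see whether they lay together. Of 23 clusters, 14 held gated cells, and cluster 4 held 401 of the 533 (75.2%), which made up 37.1% of its 1080 cells. Its leading genes were Rnase2a, Mmp12, Mgl2, Ccl17, Retnla, Flt1, Gfra2, Slc7a2, Irf4 and Ndnf, so the gated cells share it with many cells that had fewer gate genes. It held 15 of 39 gated cells at baseline, 3 of 28 at peak, 2 of 5 at plateau and 381 of 461 at resolution. Cluster 2 held 40, cluster 14, led by cell cycle genes, held 31, and cluster 15, led by Cd7, Klrd1, H2-Oa and Cd209a, held 21. All 7 gated cells of cluster 0 were from peak.

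At baseline the 15 gated cells of cluster 4 differed from the 24 elsewhere in monocyte genes: after thinning, Plac8 was found in 0% and 47.8%, Ly6c2 in 0% and 39.1%, and Ccl17 in 40.0% and 8.70%. At resolution the 381 gated cells of cluster 4 had Plac8 in 3.01% and Mgl2 in 80.6%, against 28.2% and 51.3% of the 80 elsewhere. The CD11c antibody had a median of 5 UMIs per cell in cluster 4 and 1 elsewhere, while I-A-I-E had medians of 86 and 79.5. The clusters were built from the same RNA, and Mgl2 and Ccl17 are among the leading genes of cluster 4. The gene shares above thus describe the split and are no separate check on it. In this description the gated set is mixed, with a minority that carries monocyte genes in both libraries.

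Within the resolution library the antibody signal was graded by the number of gate genes found. I-A-I-E had a median of 100 UMIs per cell in the 147 gated cells with 3 or 4 gate genes and 80.5 in the 314 with 2. It had 58 in the 448 cells just outside with 1 gate gene, and 5 in the 767 with none that met the other limits. CD11c had medians of 5, 4, 2 and 0 over the same 4 sets, CD163 of 14, 5, 3 and 2, and CD45.1 of 18, 14, 9 and 4. FrB ran the other way, with 1, 1, 1 and 5. The depth of the cells followed the same order, with medians of 9167, 8150, 6435 and 5176 gene UMIs and of 585, 500, 492.5 and 411 antibody UMIs. Its part in the antibody medians was not tested.

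After thinning to equal depth, H2-Ab1 was found in 97.2%, 92%, 83.2% and 48.05% of these sets, and Tnip3 in 71.8%, 59.5%, 43.5% and 19.8%. C1qa was found in 20.4%, 30.6%, 39.2% and 75.5%, and Lyve1 in 2.11%, 6.98%, 17.1% and 39.3%. The cells just outside the rule thus lay between the gated cells and the rest for each of these 4 genes. Rnase2a broke this order: it was found in 4.93% of cells with 3 or 4 gate genes, 14.6% with 2, 22.1% with 1 and 14.2% with none. Mmp12 was similar, with 11.3%, 24.6%, 22.9% and 8.63%.

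Several genes of the gated cells of resolution were found together. Among the 443 thinned cells, Flt1 was found in 56.2% of the 105 with Ccl17 and 22.5% of the rest. Rnase2a was found in 31.1% of cells with Mmp12 and 6.52% of those without, and in 24% of cells with Retnla and 6.15% of those without. Mmp12 was found in 31.4% of cells with Ccl17 and 16.9% of those without, and Ccl17 in 30.6% of cells with Retnla and 20.7% of those without. These pairs come from 1 library, share its depth and free RNA, and are given as a description. The 6 gated cells at resolution marked as recipient cells had a median of 16.5 I-A-I-E UMIs.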

How the data were processed

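RNA and antibody reads of 4 libraries were analysed as raw UMI counts for 32285 genes and 92 antibodies, deposited by the authors with Cell Ranger 6.1.2, Seurat 4.4.0 and genome mm10 named in the submitters' processing notes. How the authors chose cell barcodes is not known. Barcodes below 300 genes or above 10% mitochondrial UMIs were dropped: 19, 167, 65 and 43 for few genes and 38, 382, 211 and 125 for mitochondrial UMIs at the 4 stages. Doublets were kept in the main values, and alternatives left out the 6% of cells with the highest Scrublet scores or cells in which both CD45 antibodies reached 10 UMIs. The members of the gated set and the gene lists were chosen with earlier results of these data known.

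CPM were summed per library with 0.5 counts added, over libraries with at least 20 gated cells, and genes needed 30 UMIs. Named genes were the 12 highest and 12 lowest with at least 50 CPM and the same direction in every library (8 each between stages), and up to 10 called antibodies each way. Rule genes, mitochondrial, ribosomal, haemoglobin, sex-linked and receptor-segment genes were left out, and a few named items are not reported here. Antibody sums were tested with edgeR 4.0.16 (quasi-likelihood, TMM factors, library block, threshold 0.05) in R 4.3.3, with DESeq2 1.42.0 as an alternative. The test was also run on simulated counts with the same added spread for every antibody. The real sums need not have such a spread, so that run is no check on the calls. Each stage has 1 library, and the gated and comparator sums of a library share its cells' preparation. Intervals are exact (Clopper-Pearson, or Poisson for ratios) at 95%, and a floor is 3 counts. Clusters came from scanpy 1.11.5 with leidenalg 0.10.2 and igraph 0.11.9. Other tools were numpy 2.4.6, scipy 1.17.1, pandas 2.3.3 and matplotlib 3.10.9. Gene positions are from RefSeq's GRCm38.p6 annotation, and barcode sequences from the deposited feature list. Antibody tests leave out plateau, which has 5 gated cells.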

Additional observations from a re-analysis of the deposited data

Results flagged for a closer look

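The CD11b antibody differed in direction between libraries in the comparison with Vsig4-high macrophages. Its log2 ratio of gated cells over Vsig4-high macrophages was 0.58 at peak and 0.46 at resolution, against -0.19 at baseline. In antibody UMIs per 10000 of the CD11b antibody, gated cells had 3247 at baseline, 2561 at peak and 4307 at resolution, against 3714, 1713 and 3137 in Vsig4-high macrophages. The call of this antibody as higher (log2 0.61, SE 0.22, edgeR adjusted p = 0.0222) used TMM factors, which these library ratios leave out. The change of direction is thus given for UMIs per total antibody UMIs only, and the difference between libraries was not tested.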

How the results depend on the processing

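No paired analysis was possible between stages because each stage has 1 library, and the labels number no replicates; gated and comparator sums of a library are paired through the library block of the antibody test. Among counts and shares, 79 alternative values stayed close to the main ones and 43 moved; among named genes and antibodies 2073 stayed, 119 moved, 6 gained and 79 lost a call, and 13 turned. The cause was not tested unless the alternative itself shows it (fewer UMIs, libraries or cells). The share of gated cells at baseline, peak, plateau and resolution was 0.868%, 0.0572%, 0.0444% and 6.23% at 3000 UMIs, 0.607%, 0.0910%, 0.0416% and 3.32% at 2000 UMIs, and 1.03%, 0.0673%, 0% and 3.19% with at least 3 of the 4 gate genes. Resolution was the highest in each of these settings, and peak exceeded plateau in each. With CD45.1 limits of 90% and 10%, the donor share was 87.2% at resolution and 87.6% over all stages. Against other cells, leaving out 1 library gave 502 to 1323 genes higher and 841 to 1606 lower, and against dendritic cells 331 to 726 higher. With at least 10 UMIs, 495 genes were higher and 1034 lower at peak than at baseline, and 975 higher and 850 lower at resolution; the mean of each cell's own CPM gave 570 lower at peak. Stage comparisons with at least 3 gate genes could not be made, with 11 cells at baseline and 4 at peak.

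Antibodies against other cells numbered 4 higher and 5 lower with DESeq2, 0 and 0 without TMM factors (11 with an unadjusted p under 0.05) and 0 and 0 without the library block (5 such), against 20 such with DESeq2. Leaving out 1 library gave 0 to 3 higher and 0 to 3 lower. Against Vsig4-high macrophages, 7 were higher without TMM factors, 5 higher and 5 lower without the library block, and 0 to 4 higher and 0 to 7 lower with 1 library left out (18 with an unadjusted p under 0.05 without resolution).

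The following alternatives were chosen after seeing the data. Genes with at least 30 UMIs seen or expected in gated cells gave 288 higher and 580 lower against other cells. Without cells carrying 3 or more markers of another type or both CD45 antibodies, 397 genes were lower against other cells. In log2 values there, Col1a2 was 0.044, Mgp 0.22, Clec3b 0.065, Lum 1.25, Col1a1 0.28 and Cxcl10 -0.48 (-0.34 without only the cells with both CD45 antibodies, a setting listed earlier). At peak over baseline, Lcn2 was 0.83, Ltf 0.83, Cxcl10 -0.58 and Ccl12 -0.76, and at resolution over baseline Ctsk was -1.19 and Apod -0.55.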
